A study of Mus musculus with 69 samples.

Results

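The genes described here are 41 mouse genes of the interferon response, taken by symbol from a fixed list, and each has 1 row in every table of the series. They were followed among the 52404 genes listed in all 4 tables. By role they comprise 4 transcription factors (Stat2, Irf1, Irf7, Irf9), 5 sensors of foreign nucleic acid (Ddx58, Ifih1, Dhx58, Tlr3, Zbp1), 23 antiviral effectors and regulators, 5 interferon-inducible GTPases (Gbp2, Gbp3, Gbp7, Igtp, Irgm1) and 4 genes of antigen processing (Tap1, Psmb8, Psmb9, Psmb10). The animals were wild-type male C57BL/6 mice, 7 weeks old and housed singly, and no transgene or drug is named in the labels. All of them had surgery: unilateral nephrectomy (UNx), the excision of 1 kidney, or a sham operation, so no unoperated animal was available. Tubules were microdissected 24 h or 72 h later from PT-S1, the opening part of the proximal tubule, which reabsorbs most of the filtrate, or from the cortical collecting duct (CCD), which adjusts final salt and water excretion. PT-S1 at 24 h had 3 sham and 4 UNx animals, PT-S1 at 72 h had 5 and 5, CCD at 24 h had 4 and 3, and CCD at 72 h had 4 and 4. Most animals gave several libraries, 69 in all, and the animal was the replicate throughout.

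Interferons are secreted proteins that signal through receptors and Janus kinases. Type I and type III interferons activate a complex that contains Stat2 and Irf9 and binds the interferon-stimulated response element. Interferon gamma acts mainly through gamma-activated sites and through Irf1, and immunity-related GTPases, guanylate-binding proteins and immunoproteasome subunits are classical targets of it. In the kidney these genes are best known from viral and immune-mediated disease, and tubular epithelium expresses many of them at a low basal level. Gene expression was given as TPM, a transcript level scaled for gene length and to a library total of 1e+06. Differences between UNx and sham are on the log2(TPM + 1) scale, from limma with Benjamini-Hochberg adjustment over all genes of a table. Levels in TPM are plain means over an animal's libraries, while tests, and statements that groups do not overlap, use log2 values averaged per animal. In such bulk samples, fewer cells of a type and less RNA per cell cannot be told apart.

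The promoter windows show the binding letters that tie these genes to the pathway, and they are given here because Stat2 and Irf9, which read the first of these motifs, are themselves among the 41 genes. RefSeq windows of 250 bases before to 50 bases after the gene start (build GRCm38.p6, while the expression tables rest on GRCm39) were matched for 32 of the 41 genes. The response element was searched as GAAANNGAAA on both strands and was found in 17 of the 32, against 3.99% of all 27025 windows. By role it was found in 5 of 5 GTPases, 9 of 16 effectors, 2 of 3 sensors, 1 of 4 transcription factors and 0 of 4 antigen-processing genes. The gamma-activated site was searched as TTCNNNGAA, which reads the same on both strands, and was found in 9 of the 32, against 9.55% of all windows. A match is a description of letters and not a measured binding site. The stretches that follow are examples from members with a motif before the gene start, written along the gene's strand with the motif in capitals. Several members of small p described below, such as Tlr3, Tap1 and Oasl2, had no match in their windows.
Ifit3 (chr19:34583382-34583441, plus strand, response element): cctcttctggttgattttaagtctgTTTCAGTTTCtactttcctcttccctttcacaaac
Ifit1 (chr19:34640779-34640838, plus strand, response element): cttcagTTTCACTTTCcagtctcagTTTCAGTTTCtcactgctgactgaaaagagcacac
Isg15 (chr4:156200850-156200909, minus strand, response element): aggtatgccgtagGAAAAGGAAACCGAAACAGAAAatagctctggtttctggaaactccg
Stat2 (chr10:128270251-128270310, plus strand, response element): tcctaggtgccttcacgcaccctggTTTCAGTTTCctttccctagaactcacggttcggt
Gbp2 (chr3:142620579-142620638, plus strand, response element): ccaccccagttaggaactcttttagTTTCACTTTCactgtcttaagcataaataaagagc
Igtp (chr11:58199496-58199555, plus strand, response element): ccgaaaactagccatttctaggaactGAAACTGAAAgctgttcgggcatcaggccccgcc
Irgm1 (chr11:48871421-48871480, minus strand, response element): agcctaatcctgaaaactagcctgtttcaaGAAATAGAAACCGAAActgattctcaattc
Irf1 (chr11:53769898-53769957, plus strand, gamma-activated site): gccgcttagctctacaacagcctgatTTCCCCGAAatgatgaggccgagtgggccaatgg
The stretch of Ifit3 is identical, letter for letter, to that of its neighbour Ifit3b (chr19:34607778-34607837, plus strand). The coding sequences of Ifit3 and Ifit3b are 1209 bases each and 99.1% identical, so reads may have been split between them and the level of each is uncertain.

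The defining markers of each labelled segment were high in it. The summed level of 4 markers of the proximal tubule's first segments lay between 6071 and 14300 TPM in PT-S1 animals and between 0.86 and 59.0 TPM in CCD animals, and 4 principal cell markers lay between 14316 and 57904 TPM in CCD and between 27.8 and 112 TPM in PT-S1. Sequencing depth is unknown, because TPM keeps none. Between 9247 and 12494 genes reached 1 TPM in a PT-S1 library and between 12681 and 14875 in a CCD library. Against the rest of their table, 5 libraries correlated poorly (a median correlation under 0.92): library 1 of sham 1 and library 2 of sham 3 in PT-S1 at 24 h, library 2 of UNx 1 and of UNx 2 in PT-S1 at 72 h, and library 2 of sham 1 in CCD at 72 h. Where values without them were computed, they are given beside the results they touch. Library 2 of UNx 1 and of UNx 2 in PT-S1 at 72 h held 1797 and 1803 TPM of the proximal tubule markers. Library 1 of these animals held 14411 and 14828 TPM. Library numbers are those of the table columns.

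Over the sham means of both times, 36 of the 41 genes had a higher TPM level in CCD and 5 in PT-S1, but most genes of the tables did so. Among genes tested in both segments, 29 of 31 members were higher in sham CCD at 24 h, where 78% of all genes were, and 29 of 37 at 72 h, where 79.6% of all genes were. The median difference was 1.32 over the members and 0.73 over all genes at 24 h, and 0.58 and 0.71 at 72 h. Every CCD animal was above every PT-S1 animal for 23 of the 31 members against 61.1% of all genes, and for 13 of the 37 against 55% at 72 h, where the members thus lay below the background. The tables were normalized separately, and this is a description of levels. The 5 genes of highest level in CCD were Irf1 (161 TPM), the membrane restriction factor Ifitm3 (141 TPM), Irf9 (73.3 TPM), the GTPase Irgm1 (67.9 TPM) and Ifi35 (63.9 TPM). In PT-S1 they were Ifi27, a small mitochondrial protein gene (150 TPM), Irgm1 (72.1 TPM), Ifitm3 (40.8 TPM), Ifi35 (18.7 TPM) and Bst2, which encodes the virus-tethering protein tetherin (16.2 TPM). The transcription factor Irf1 was 23.0 times as high in CCD as in PT-S1, where its sham level was 7.01 TPM, and Irf9 was 6.25 times as high. Tlr3, the endosomal receptor of double-stranded RNA, was at 21.4 TPM in CCD and 2.06 TPM in PT-S1. The reverse order was seen for Ifi27, at 5.48 times the CCD level in PT-S1, and for Cmpk2, a mitochondrial nucleotide kinase, at 2.32 times. Mx1, a GTPase against influenza-like viruses that is defective in many laboratory strains, did not reach a mean of 1 TPM in any table and was tested in none of the 4.

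**Figure D1:**
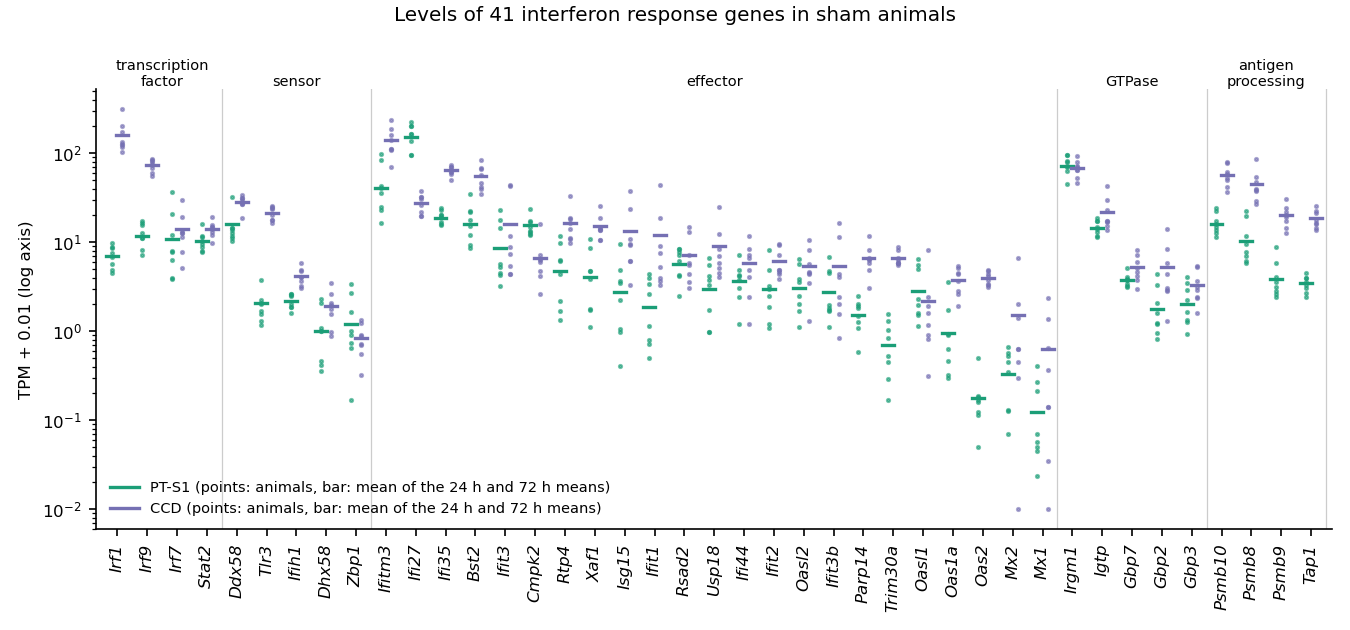
TPM of each of the 41 genes in the sham animals of PT-S1 and CCD, on a log axis (0.01 added), grouped by role. Points are animals and bars the mean of the 24 h and 72 h means, and Irf1, Irf9 and Tlr3 sit far higher in CCD than in PT-S1, while Ifi27 sits higher in PT-S1.

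Set over all 4 tables, the genes leaned lower after UNx in PT-S1 at both times and in the 24 h CCD table, and higher in the 72 h CCD table. In limma, 0 of the 41 passed an adjusted p of 0.05 in any table. The median member difference was −0.15 and −0.37 in PT-S1 at 24 h and 72 h, and −0.27 and 0.50 in CCD. The median over all genes tested was −0.19, −0.29, −0.04 and 0.01 in the same order. In PT-S1 the members thus lay close to the whole table, and relative to the all-gene median they differed by 0.04 at 24 h and −0.08 at 72 h. In CCD the member median differed from the all-gene median by −0.23 at 24 h and by 0.49 at 72 h. Unadjusted p values under 0.05 were reached by 3 of 31 and 7 of 37 tested members in PT-S1 at 24 h and 72 h, and by 4 of 38 and 8 of 40 in CCD. In the same order, 17.8%, 20.5%, 15.5% and 7.49% of all genes tested had such a p.

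**Figure D2:**
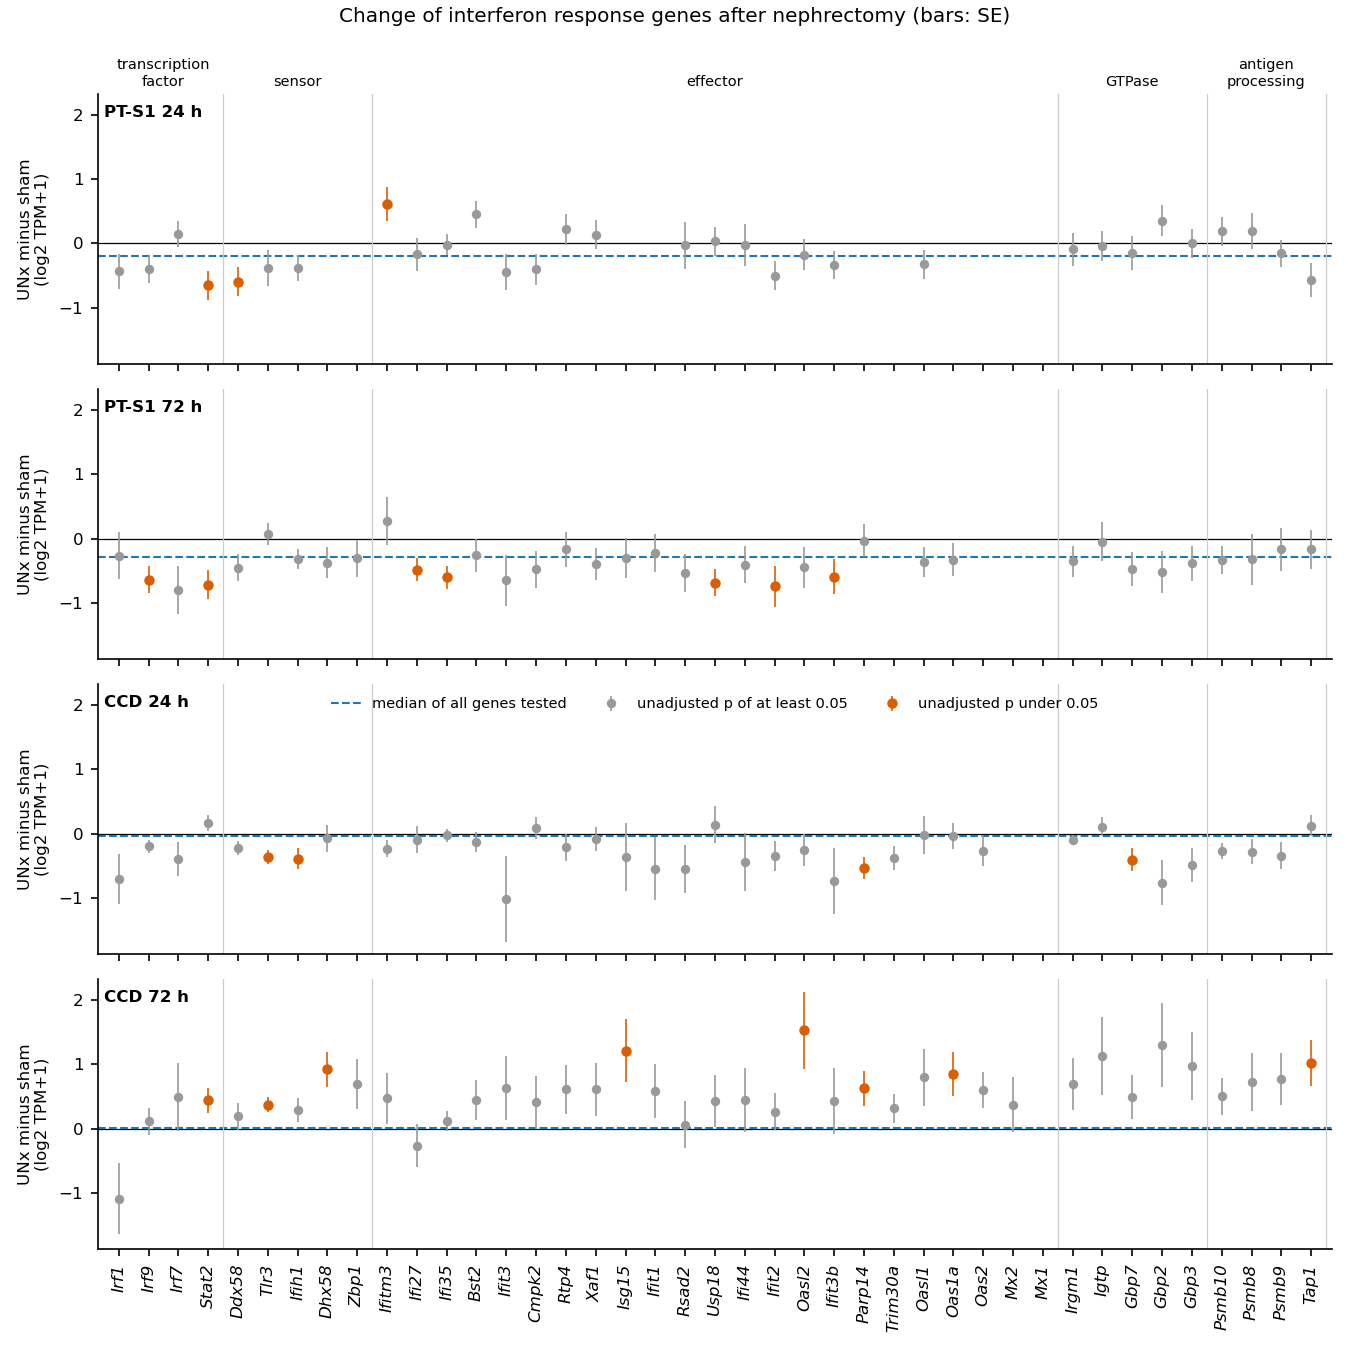
Difference between UNx and sham on the log2(TPM + 1) scale for each tested member in each table, with its SE, grouped by role. Members with an unadjusted p under 0.05 are in orange and the dashed line is the median of all genes tested, above which 38 of 40 members lie in CCD at 72 h.

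In PT-S1 at 24 h, 10 tested members were higher and 21 lower after UNx, where 29.1% of all genes tested were higher. Over all 11874 genes tested, 0% passed the adjusted threshold, 2.59% were higher and 15.2% lower at an unadjusted p under 0.05, and the members gave 1 higher and 2 lower of 31. Every UNx animal lay above every sham animal for 2.79% of all genes and below for 12.1%, against 1 and 3 of the 31 members. With quantile normalization or median-ratio scaling the split was 18 higher to 13 lower, where 50.4% and 51.4% of all genes were higher. The direction of the list in this table thus depends on the scaling, as does that of all genes. Without both libraries of low correlation 5 members were higher and 26 lower, where 22.9% of all genes were higher. The median was then −0.26 over the members and −0.21 over all genes, and 5 members had an unadjusted p under 0.05, against 24.7% of all genes. That number was 0 without sham 1, 2 without UNx 4, 5 without sham 3 or UNx 1, and 7 without UNx 3, where the share of all genes was 7.02%, 15.8%, 24.1%, 10.5% and 21.9% in the order named. The medians by role were −0.42 for the transcription factors, −0.39 for the sensors, −0.03 for the effectors, −0.04 for the GTPases and 0.02 for antigen processing.

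Stat2 (ENSMUSG00000040033), the signal transducer specific to type I and type III interferon, was at 15.8, 7.89 and 7.78 TPM in sham animals 1 to 3 and at 5.07, 4.82, 6.62 and 5.36 TPM in UNx animals 1 to 4. All UNx animals were below all sham animals, and sham 1 stood well above the rest, with its library 1 (one of low correlation) at 31.5 TPM. The difference for Stat2 was −0.65 (SE 0.226, limma adjusted p = 0.254). Without sham 1 it was −0.41, and without both libraries of low correlation −0.59 (adjusted p = 0.102), still with no overlap. Ddx58 (ENSMUSG00000040296), which encodes the RNA sensor RIG-I, was at 32.1, 14.3 and 12.7 TPM in sham and 10.8, 12.0, 9.78 and 9.28 TPM in UNx. The groups did not overlap here either, sham 1 was again far higher, and its library 1 was at 70.1 TPM. The difference for Ddx58 was −0.59 (SE 0.224, limma adjusted p = 0.255), −0.33 without sham 1, and −0.45 without the libraries of low correlation (adjusted p = 0.111), also with no overlap.

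Among the effectors, Ifit2 (ENSMUSG00000045932), an RNA-binding antiviral protein, was at 2.49, 1.09 and 1.86 TPM in sham and 0.69, 0.58, 0.93 and 1.04 TPM in UNx. The groups were separated by a narrow gap, and the difference was −0.50 (SE 0.230, limma adjusted p = 0.286), or −0.55 without the libraries of low correlation. Ifit2 lay near the floor, with single libraries at 0.01 TPM in sham 3 and 0.09 TPM in UNx 2. It reached the mean of 1 TPM needed for a test only through the sham animals, a filter that favours this direction. Ifitm3 (ENSMUSG00000025492) went the other way, at 24.7, 16.2 and 22.7 TPM in sham and 20.8, 27.2, 49.1 and 24.9 TPM in UNx. UNx 3 alone was far above the others and the groups overlapped. The difference for Ifitm3 was 0.60 (SE 0.264, limma adjusted p = 0.276), falling to 0.35 without UNx 3 and to 0.13 without both libraries of low correlation. The most abundant effector, Ifi27, was at 95.3, 137 and 94.4 TPM in sham and 102, 106, 58.6 and 121 TPM in UNx, with full overlap. Irgm1, the most abundant GTPase, likewise overlapped, at 63.2, 70.4 and 45.3 TPM against 56.8, 58.7, 36.1 and 67.8 TPM.

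In PT-S1 at 72 h, 2 tested members were higher after UNx (Tlr3, and Ifitm3, which is at −0.12 without the libraries of low correlation) and 35 lower, in a table where 17% of all genes tested were higher. Over 11886 genes, 0% passed the adjusted threshold, 1.33% were higher and 19.1% lower at an unadjusted p under 0.05, and of the 37 members 0 were higher and 7 lower. The share of members with a low p was thus near that of all genes. Every UNx animal was above every sham animal for 0.236% of all genes and 0 members, and below for 5.33% of all genes and 1 member. The split was 10 higher to 27 lower with quantile normalization and 13 to 24 with median-ratio scaling, where 42.2% and 51.8% of all genes were higher. Both low-correlation libraries of this table belong to UNx animals. Without them the median was −0.02 over all genes and −0.19 over the members, with 8 members higher and 29 lower, where 46% of all genes were higher. The 7 members became 4 without UNx 2, 11 without sham 4 and 16 without UNx 3, where 9.89%, 18% and 28.2% of all genes had such a p, beside 20.5% with all animals.

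The 4 members with the smallest p at this time were Ifi35, Usp18, Stat2 and Irf9. Ifi35 (ENSMUSG00000010358), an interferon-induced leucine zipper protein, was at 22.9, 19.9, 24.1, 20.3 and 19.4 TPM in sham animals 1 to 5 and at 12.2, 11.7, 17.5, 14.6 and 15.7 TPM in UNx animals 1 to 5. It was the 1 member whose UNx animals all lay below the sham animals, at 14.3 ± 2.41 TPM against 21.3 ± 2.07 TPM (SD, n = 5 and 5). Its difference was −0.60 (SE 0.176, limma adjusted p = 0.237), and −0.33 without the libraries of low correlation. Usp18 (ENSMUSG00000030107), a protease that removes ISG15 from proteins and restrains type I interferon signalling, was at 5.51, 4.14, 6.60, 3.26 and 3.77 TPM in sham and 2.53, 4.21, 3.77, 1.5 and 2.35 TPM in UNx. The groups overlapped, and the difference of −0.68 (SE 0.214, limma adjusted p = 0.237) was −0.27 without the libraries of low correlation.

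The transcription factors had the lowest role median in this table, −0.68. Stat2 was at 9.42, 11.4, 11.8, 8.93 and 10.2 TPM in sham and 6.74, 5.27, 9.31, 5.03 and 8.54 TPM in UNx. UNx 3 reached into the sham range, and the difference of −0.71 (SE 0.229, limma adjusted p = 0.237) was −0.23 without the libraries of low correlation, in which Stat2 was at 1.23 and 1.16 TPM. Its partner Irf9 (ENSMUSG00000002325) was at 15.6, 17.4, 16.3, 12.5 and 11.1 TPM in sham and 9.23, 9.47, 11.4, 9.50 and 11.3 TPM in UNx. Here UNx 3 and UNx 5 lay just above sham 5. The difference of −0.64 (SE 0.212, limma adjusted p = 0.237) was −0.14 without those libraries. Role medians were −0.32 for the sensors, −0.41 for the effectors, −0.39 for the GTPases and −0.25 for antigen processing. Ddx58, at −0.45, became 0.05 without the low-correlation libraries. Ifi27 was at 203, 202, 163, 226 and 165 TPM in sham and 161, 105, 140, 151 and 138 TPM in UNx, so the UNx animals lay below the sham animals in plain TPM, though not on the log2 averages, with a difference of −0.48 (SE 0.179, limma adjusted p = 0.237).

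Marker genes of other cells also varied between the animals of this table. The mean log2(TPM + 1) level over the 41 genes was 3.08, 2.66, 3.03, 2.37 and 2.51 in sham and 2.25, 2.16, 2.87, 1.98 and 2.61 in UNx. The summed level of 10 macrophage and leukocyte markers, none of them at 0 in all libraries, was 153, 202, 432, 145 and 210 TPM in sham and 183, 156, 372, 39.4 and 264 TPM in UNx. For 7 endothelial markers the sums were 157, 135, 266, 102 and 129 TPM in sham and 48.7, 47.7, 212, 68.1 and 114 TPM in UNx. UNx 3, with the highest member level among UNx animals, was also highest in both marker sums, and UNx 4, with the lowest member level, was lowest in the macrophage sum but not in the endothelial one. Sham 1, with the highest member level of all, had a macrophage sum close to the lowest of the sham animals. The part of these cells in the member levels was not tested.

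**Figure D3:**
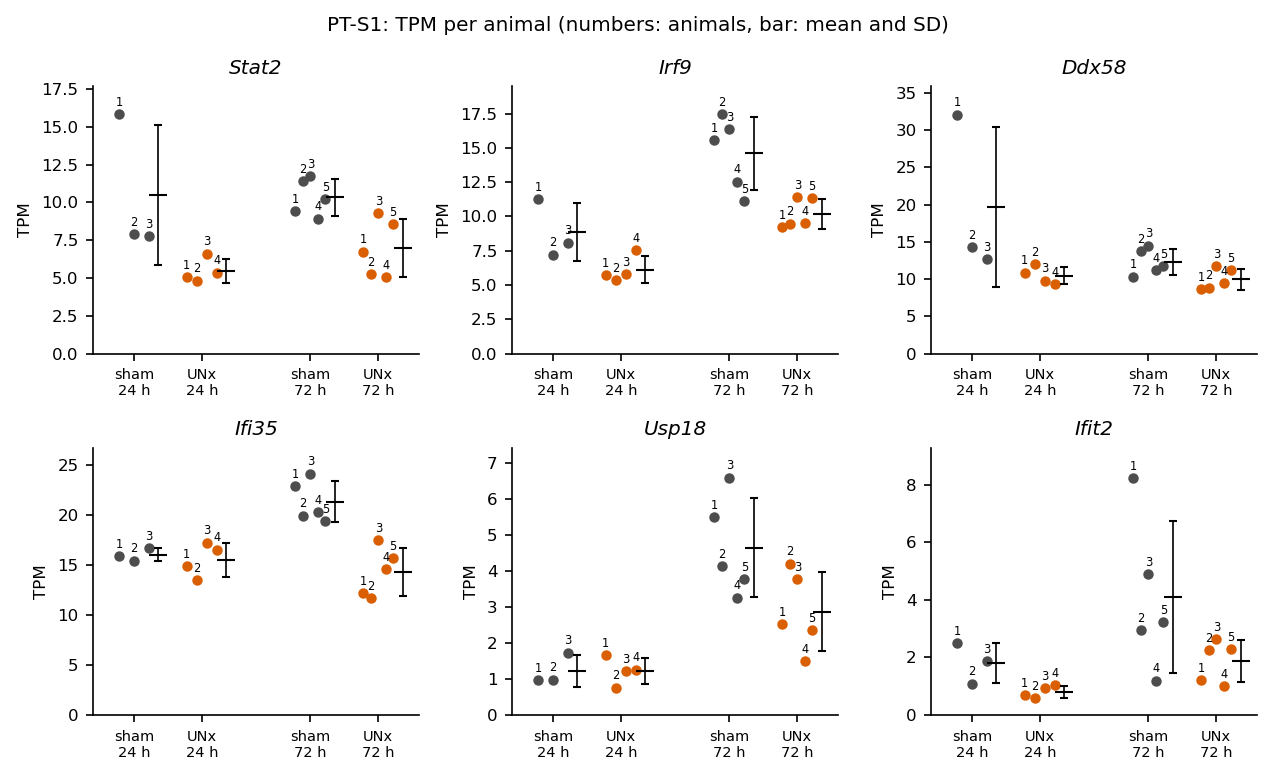
TPM of Stat2, Irf9, Ddx58, Ifi35, Usp18 and Ifit2 in each PT-S1 animal at 24 h and 72 h, with the mean and SD per group. Sham 1 stands apart at 24 h for Stat2 and Ddx58, and at 72 h the UNx animals lie below all sham animals for Ifi35.

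In CCD at 24 h, 5 tested members were higher after UNx and 33 lower, while 41.8% of all genes were higher. Of 13775 genes, 0.987% passed the adjusted threshold and none of them was a member. At an unadjusted p under 0.05, 5.55% of all genes were higher and 9.97% lower, against 0 and 4 of the 38 members. Every UNx animal was above every sham animal for 5.55% of all genes and 0 members, and below for 9.51% of all genes and 3 members, close to the background. With quantile normalization the split was 9 higher to 29 lower, and with median-ratio scaling 8 to 30, where 52.3% and 52.2% of all genes were higher. The 4 members became 2 without UNx 1, 7 without sham 2 and 9 without UNx 3, where 10.3%, 14.8% and 14.7% of all genes had such a p, beside 15.5% with all animals. Role medians ran from −0.25 for the effectors to −0.41 for the GTPases. Markers of other cells differed between these animals too. The summed level of 3 thick ascending limb markers was 766, 3455, 98.6 and 197 TPM in sham animals 1 to 4 and 83.9, 200 and 146 TPM in UNx animals, and that of 4 principal cell markers was 14759, 41671, 39568 and 17475 TPM in sham and 57904, 38099 and 53092 TPM in UNx. The median member difference was −0.30 without sham 1 and −0.36 without sham 2, the animals of highest thick ascending limb level. The part of these markers' cells in the member levels was not tested.

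The sensors Tlr3 and Ifih1 were among the members with the smallest p. Tlr3 (ENSMUSG00000031639) was at 25.0, 23.4, 25.5 and 24.4 TPM in sham animals 1 to 4 and at 15.9, 21.1 and 20.4 TPM in UNx animals 1 to 3. The sham animals were tightly grouped and all 3 UNx animals lay below them, at 19.1 ± 2.84 TPM against 24.6 ± 0.942 TPM (SD, n = 3 and 4). The difference for Tlr3 was −0.37 (SE 0.110, limma adjusted p = 0.157). Ifih1 (ENSMUSG00000026896), which encodes MDA5, a cytosolic sensor of long double-stranded RNA, was at 4.01, 3.63, 5.75 and 4.73 TPM in sham and 3.00, 3.21 and 3.43 TPM in UNx. Its groups were separate too, with a difference of −0.39 (SE 0.166, limma adjusted p = 0.308). Parp14 (ENSMUSG00000034422), an ADP-ribosyltransferase, was at 5.77, 6.43, 4.88 and 8.15 TPM in sham and 3.77, 3.66 and 4.59 TPM in UNx, without overlap. The difference for Parp14 was −0.53 (SE 0.166, limma adjusted p = 0.168). With each library taken as a replicate, which treats libraries of 1 animal as independent, Parp14 passed the threshold at an adjusted p of 0.043. Gbp7 (ENSMUSG00000040253), a guanylate-binding protein, was at 4.62, 5.07, 6.03 and 7.09 TPM in sham and 3.69, 3.61 and 5.2 TPM in UNx, where UNx 3 overlapped the sham range.

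Ifit3 and Ifit3b were dominated by single animals in this table. Ifit3 was at 4.42, 5.35, 43.3 and 11.7 TPM in sham and 3.27, 3.62 and 13.1 TPM in UNx, and Ifit3b at 2.00, 1.56, 11.6 and 4.38 TPM in sham and 0.975, 1.86 and 4.38 TPM in UNx. Sham 3 was highest for both. It was also highest for Ifitm3, at 141 TPM beside 108, 110 and 113 TPM in the other sham animals. Without sham 3 the median member difference was −0.15, and 11 members were higher and 27 lower, where 42.9% of all genes were higher. Irf1, the most abundant member, was at 125, 203, 104 and 133 TPM in sham and 78.2, 43.5 and 162 TPM in UNx. The difference for Irf1 was −0.71 (SE 0.388, limma adjusted p = 0.429), with UNx 3 inside the sham range.

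In CCD at 72 h the members lay higher after UNx: 38 of 40 tested, where 52.2% of all genes tested were higher, and Irf1 and Ifi27 lower. Of 13770 genes, 0.595% passed the adjusted threshold and none of them was a member. At an unadjusted p under 0.05, 4.66% of all genes were higher and 2.82% lower, against 8 and 0 of the 40 members. Every UNx animal was above every sham animal for 3.23% of all genes and 2 members, and below for 1.54% of all genes and 0 members. The split of 38 to 2 was the same under either scaling, where 49.9% (quantile) and 48.8% (median-ratio) of all genes were higher. Without library 2 of sham 1, the one of low correlation, 37 were higher and 3 lower, where 36.8% of all genes were higher. The median was then 0.54 over the members and −0.07 over all genes, and 11 members had an unadjusted p under 0.05, against 14.2% of all genes. By role, the median difference was 0.28 for the transcription factors, 0.38 for the sensors, 0.46 for the effectors, 0.75 for antigen processing and 0.98 for the GTPases. All 5 GTPases, all 5 sensors and all 4 antigen-processing genes were on the higher side. The sensor Zbp1, 1 of the 38, had a sham mean of 0.832 TPM. It reached the mean of 1 TPM needed for a test only through its UNx animals, so its side was set by that filter.

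With all libraries in, the sensors Dhx58 and Tlr3 were the members without overlap. Dhx58 (ENSMUSG00000017830), which encodes LGP2, a regulator of the RIG-I family, was at 0.96, 0.87, 1.75 and 3.48 TPM in sham and at 5.68, 3.44, 3.18 and 4.05 TPM in UNx. The UNx animals were above the sham animals when libraries were averaged on the log2 scale, while in plain TPM sham 4 overlapped UNx 2 and UNx 3. The means were 4.09 ± 1.12 TPM against 1.77 ± 1.21 TPM (SD, n = 4 and 4), with a difference of 0.92 (SE 0.276, limma adjusted p = 0.329), or 0.87 without the low-correlation library of sham 1 (adjusted p = 0.183). Tlr3 was at 17.9, 16.5, 17.8 and 20.3 TPM in sham and 20.5, 22, 23.7 and 24.1 TPM in UNx. The groups were just separate, and the difference was 0.38 (SE 0.118, limma adjusted p = 0.359). Sham 1 joined libraries at 27.6 and 8.21 TPM, and without the second of these, which is the low-correlation one, sham 1 lay above every UNx animal. The separation of the groups was then lost, and the difference for Tlr3 was 0.17 (adjusted p = 0.649).

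Tap1 (ENSMUSG00000037321), a subunit of the peptide transporter that loads class I molecules, was at 17.7, 16.0, 22.5 and 25.7 TPM in sham and 42.4, 62.7, 17.9 and 85.3 TPM in UNx. UNx 1, 2 and 4 were clearly above every sham animal and UNx 3 lay within the sham range. The difference for Tap1 was 1.02 (SE 0.354, limma adjusted p = 0.464). Oasl2 (ENSMUSG00000029561), of the oligoadenylate synthetase family, was at 4.56, 4.47, 1.3 and 10.6 TPM in sham and 20.9, 27.4, 3.54 and 24.1 TPM in UNx. It had the largest difference among all tested members of the table, 1.53 (SE 0.598, limma adjusted p = 0.574), and again UNx 3 was low. Irgm1 was at 93.9, 45.9, 52.9 and 78.9 TPM in sham and 102, 149, 42.5 and 212 TPM in UNx, and Psmb10, an immunoproteasome subunit, at 78.8, 77.5, 36.7 and 52.1 TPM in sham and 81.8, 109, 50.2 and 117 TPM in UNx. In both genes UNx 3 was the lowest UNx animal. Ifitm3 was at 236, 189, 69.9 and 160 TPM in sham and 294, 274, 101 and 220 TPM in UNx, with sham 3 and UNx 3 the lowest of their groups. Without the low-correlation library of sham 1 the differences were 1.00 for Tap1, 1.47 for Oasl2, 0.76 for Irgm1, 0.63 for Psmb10 and 0.64 for Ifitm3.

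Irf1 was at 127, 171, 310 and 117 TPM in sham and 59.4, 201, 27.2 and 113 TPM in UNx, a difference of −1.08 (SE 0.545, limma adjusted p = 0.740) with wide overlap. Irf9 overlapped as well, at 55.4, 68.8, 60.1 and 83.7 TPM in sham and 98.4, 70.7, 49.1 and 74.2 TPM in UNx. Ifit3 was at 8.88, 7.35, 4.41 and 43.7 TPM in sham and 34.9, 18.4, 4.81 and 16.9 TPM in UNx, where sham 4 exceeded every UNx animal. Ifit3b had the same highest and lowest animals, at 4.05, 2.43, 0.83 and 16.6 TPM in sham and 11, 4.99, 1.62 and 5.45 TPM in UNx.

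The number of members with a low p rested on which animals were included. The mean log2(TPM + 1) level over the 41 genes was 3.51, 3.44, 3.10 and 4 in sham animals and 4.34, 4.39, 3.18 and 4.28 in UNx animals, so that UNx 3 lay within the sham range and sham 4 came closest to the others of UNx. Without UNx 3 the median member difference was 0.80, and 24 of 40 members had an unadjusted p under 0.05, against 5.26% of all genes, with a smallest limma adjusted p of 0.0525. With all animals, 7.49% of all genes had such a p. Without sham 4 the median was 0.76, with 10 of 39 members against 8.24% of all genes. Without sham 3, UNx 1, UNx 2 or UNx 4 the number of members was 3 in each case, against 7.01%, 7.04%, 7.39% and 4.79% of all genes, and without sham 2 it was 5, against 6.32%. The 10 macrophage and leukocyte markers, none of them at 0 in all libraries, summed to 208, 425, 134 and 263 TPM in sham and 351, 448, 191 and 289 TPM in UNx. The lowest sums, in sham 3 and UNx 3, belonged to the animals of lowest member level in their group. UNx 2 had both the highest sum and the highest level among UNx animals. In sham animals the 2 came apart, with the highest sum in sham 2 and the highest level in sham 4. The part of these cells in the member levels was not tested.

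**Figure D4:**
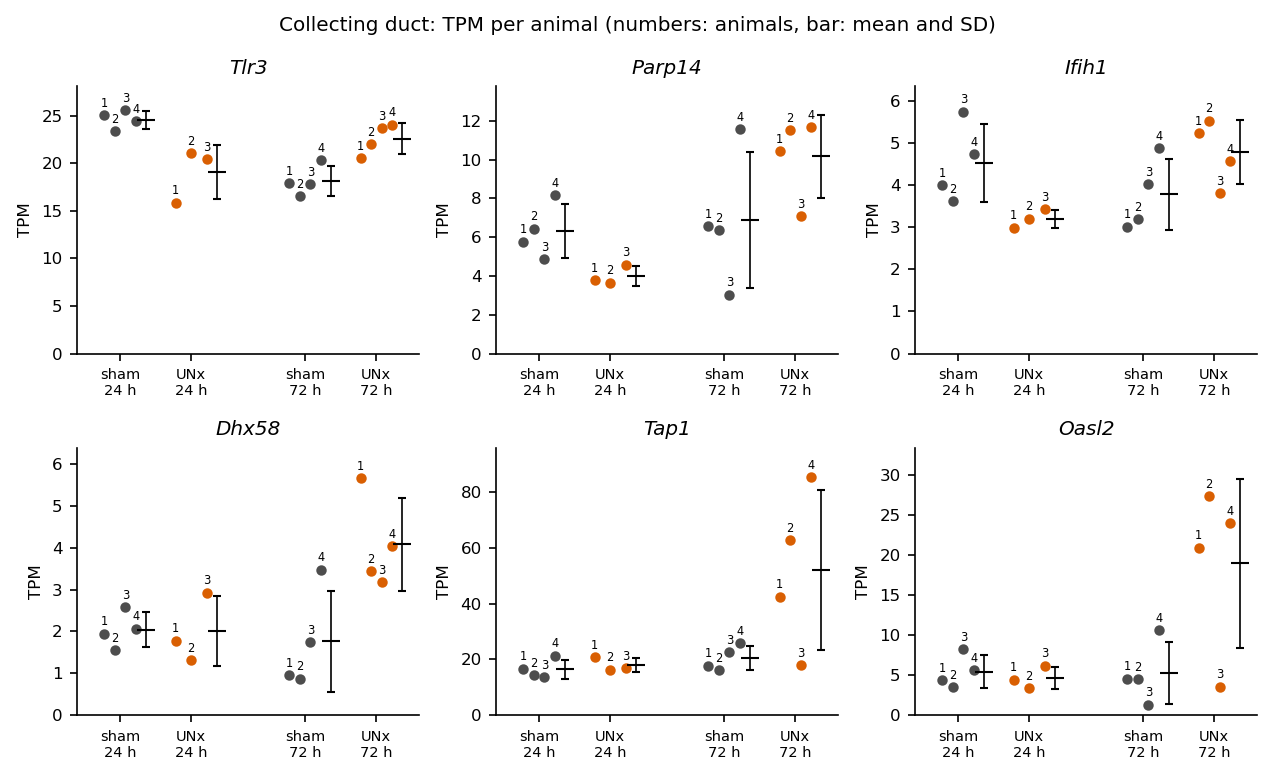
TPM of 6 members in each CCD animal at 24 h and 72 h, with the mean and SD per group. Tlr3 lies below the sham animals at 24 h and above them at 72 h (there by way of a low-correlation library of sham 1), and for Tap1 and Oasl2 UNx animal 3 stays near the sham level at 72 h.

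Libraries of 1 animal differed strongly in these genes, and in CCD at 72 h a pair of libraries did so with different sizes by role. The genes named for this pattern were chosen after their values were seen. The libraries whose raised members are counted here and in the next paragraph were those of largest member median relative to the all-gene median. Their excess over the share of all genes follows from that choice and is a description only. In sham 4, library 3 was at least 1 log2 unit above the animal's other libraries for 22 of 40 members, against 1.69% of all genes. Ifit1, an antiviral protein that binds foreign RNA caps, was at 5.89, 6.78 and 120 TPM in libraries 1 to 3, and Ifit3 at 9.68, 5.33 and 116 TPM. Isg15, a ubiquitin-like modifier, was at 13.4, 18.1 and 79.9 TPM, and Mx2 at 0.74, 1.14 and 18.2 TPM. The GTPases and antigen-processing genes differed less there: Gbp2 was at 3.99, 2.95 and 6.23 TPM and the immunoproteasome subunit Psmb8 at 35.3, 39.0 and 40.9 TPM. The median by role was 1.91 for the effectors, 1.03 for the GTPases and 0.27 for antigen processing.

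In UNx 4, library 2 was at least 1 log2 unit above library 1 for 23 of 40 members, against 1.74% of all genes. Of these, 14 were also raised in library 3 of sham 4, which is 60.9% of the members raised in UNx 4 and 63.6% of those raised in sham 4. With 22 and 23 of 40 members raised, an overlap near this size follows from the counts alone. The overlap over all genes was not computed. In UNx 4, Gbp2 was at 4.01 and 82.9 TPM in libraries 1 and 2, Igtp at 42.8 and 201 TPM, Irgm1 at 96.7 and 328 TPM, Tap1 at 27.4 and 143 TPM, and Psmb8 at 38.3 and 216 TPM. Ifit1 differed less, at 5.83 and 19.5 TPM, and Mx2 was at 0.92 and 1.10 TPM. The median by role was 1.06 for the effectors, 2.20 for the GTPases and 2.08 for antigen processing, so here the effectors had the lowest of the 3 medians, where in sham 4 they had the highest. Leaving out library 2 of UNx 4 gave a median member difference of 0.39 with 3 members at an unadjusted p under 0.05, and leaving out library 3 of sham 4 gave 0.71 with 13 members, where 7.27% and 7.73% of all genes had such a p. Without library 1 of UNx 1 or library 2 of sham 4 it was 4 members, against 7.19% and 7.35% of all genes. Elsewhere, library 3 of UNx 3 in CCD at 24 h was higher than the animal's other libraries in 38 of 38 members, 10 of them by at least 1 log2 unit against 1.55% of all genes. Without that library 11 members, not 4, had an unadjusted p under 0.05 in that table, against 16.5% of all genes. Library 2 of UNx 2 in PT-S1 at 24 h exceeded library 1 by that much in 12 of 31 members against 4.88% of all genes, with Gbp2 at 7.67 and 0.40 TPM.

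**Figure D5:**
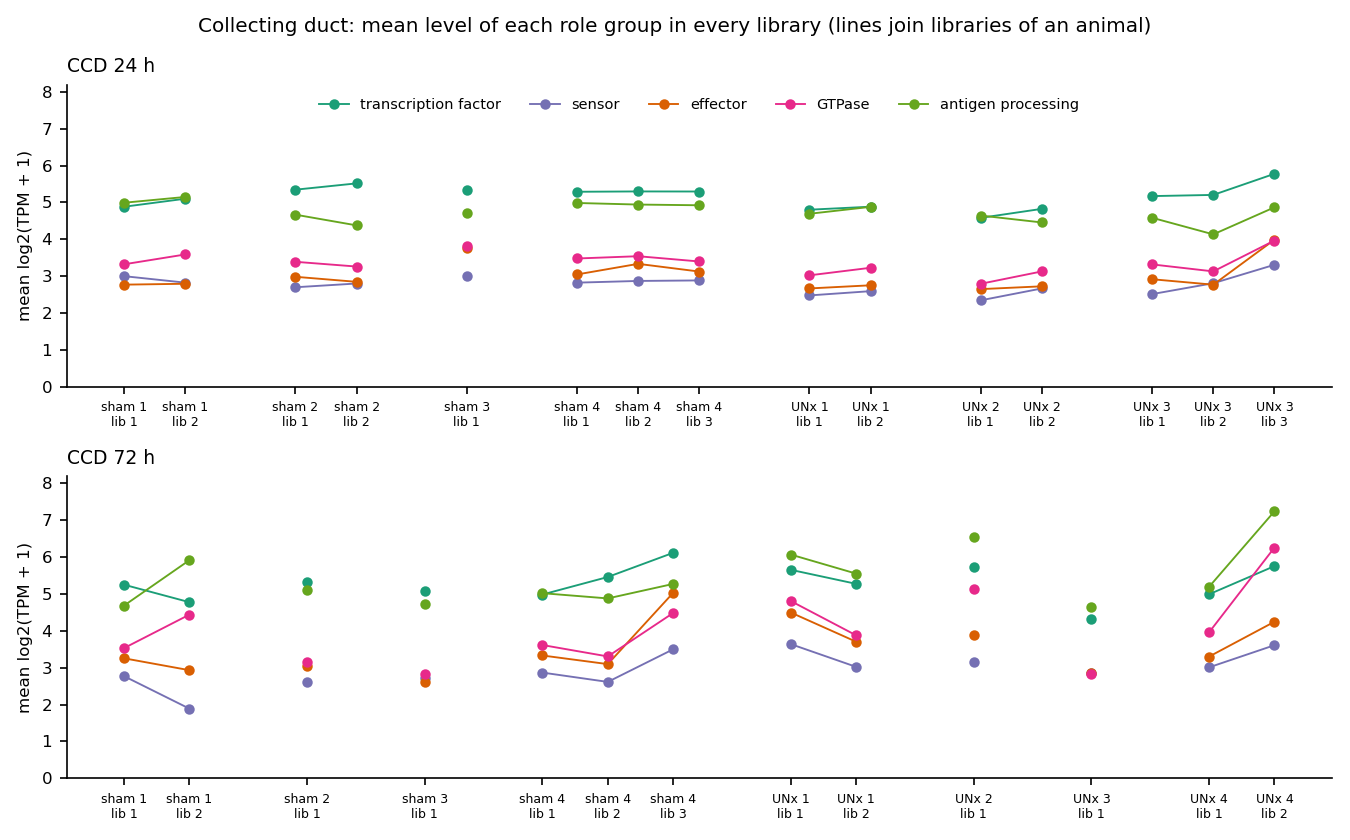
Mean log2(TPM + 1) of each role group in every CCD library at 24 h (upper) and 72 h (lower), with lines that join the libraries of an animal. At 72 h, library 3 of sham 4 is raised mostly in the effectors, and library 2 of UNx 4 mostly in the GTPases and antigen-processing genes.

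The difference between the UNx effects of the times and segments was tested for each member in limma. Between 72 h and 24 h in PT-S1, 0% of 11455 genes and 0 of 31 members passed the adjusted threshold, and 3.33% of all genes and 2 members (Ifi35 at −0.58 and Usp18 at −0.72) had an unadjusted p under 0.05, and 1 to 5 members with an animal left out, against 1.99% to 5.06% of all genes. The median difference was −0.27 over the members and −0.10 over all genes, but 0.15 and 0.20 without the libraries of low correlation. In CCD, 0% of 13253 genes and 0 members passed, and 4.96% had an unadjusted p under 0.05, against 11 of 38 members. The effect was higher at 72 h for 36 of the 38, where it was for 59.3% of all genes. The median difference was 0.82 over the members and 0.05 over all genes. For Tlr3 it was 0.74 (SE 0.156, adjusted p = 0.637) and for Parp14 it was 1.16 (SE 0.348, adjusted p = 0.968). The 11 members of low p became 6 after quantile normalization, against 5.74% of all genes. Median-ratio scaling left 7 of them, against 5.63% of all genes. The member medians after these scalings were 0.73 and 0.77, beside −0.006 and −0.01 over all genes. The number at an unadjusted p under 0.05 was 26 without UNx 3 of 72 h, against 3.76% of all genes, 12 without the library of low correlation, against 8.47%, and 4 to 6 without sham 3, UNx 1, UNx 2 or UNx 4 of 72 h or without sham 3, UNx 1 or UNx 2 of 24 h, against 3.4% to 6.17%.

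Between the segments at 24 h, 0.137% of 10988 genes and 0 members passed the adjusted threshold, and 15.4% of all genes and 5 of 31 members had an unadjusted p under 0.05, which is near the background. These 5 became 2 without the libraries of low correlation, against 20.9% of all genes, and 1 to 3 without sham 1, sham 2 or UNx 4 of PT-S1, or without sham 3, UNx 1 or UNx 2 of CCD, against 10.2% to 16.8%. The smallest p was that of Stat2, whose effect in PT-S1 minus that in CCD was −0.81 (SE 0.257, adjusted p = 0.198). At 72 h, 0% of 11035 genes and 0 members passed, 9.33% had an unadjusted p under 0.05, and so did 18 of 37 members. The effect was lower in PT-S1 for 36 of the 37, while it was higher there for 16.9% of all genes. The median difference was −1 over the members and −0.31 over all genes. Stat2 differed by −1.15 (SE 0.317, adjusted p = 0.495), Dhx58 by −1.29 (SE 0.378, adjusted p = 0.495) and Oasl2 by −1.98 (SE 0.689, adjusted p = 0.495). The times and the segments share their sham and UNx groups in these tests, so these results are not independent of each other or of the effects above. The 18 members became 8 to 12 without sham 1, sham 3, UNx 1 or UNx 4 of PT-S1, or without sham 2, sham 3, UNx 1, UNx 2 or UNx 4 of CCD, against 6.05% to 16% of all genes, and 29 without UNx 3 of CCD, against 6.07% of all genes. Without the libraries of low correlation they became 9, against 14.9% of all genes, with a median of −0.66 over the members and 0.06 over all genes. The 18 also depended on the scaling. Quantile normalization left 7 members, against 7.79% of all genes, and median-ratio scaling left 6, against 7.27%. The member medians after these scalings were −0.64 and −0.65, beside −0.06 and 0.02 over all genes.

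Levels at 72 h were also set beside those at 24 h within each operation, as a description across separately normalized tables. In PT-S1 of sham animals, 28 of 31 members were higher at 72 h, where 41.2% of all genes were, with a median of 0.72 against −0.07. For 11 members every 72 h sham animal was above every 24 h sham animal, which held for 6.47% of all genes. Among them was Usp18, at 0.97 to 1.73 TPM at 24 h and 3.26 to 6.60 TPM at 72 h, and Ifi27, at 94.4 to 137 TPM and 163 to 226 TPM. Both low-correlation libraries of PT-S1 at 24 h belong to sham animals. Without them Irf7, Gbp2 and Gbp3, of the 11, overlapped in plain TPM, and the others of the 11 did not. The highest 24 h values were then 8.21, 1.8 and 1.74 TPM, and the lowest 72 h values 7.84, 1.2 and 1.62 TPM. Counts and shares of all genes without low-correlation libraries were not computed for these level comparisons. In PT-S1 of UNx animals 25 of 31 were higher at 72 h, where 30.8% of all genes were, and 3 did not overlap, against 1.72% of all genes. In CCD of sham animals 17 of 38 were higher at 72 h, where 36.1% of all genes were, with a median of −0.04 against −0.09. There, 0 members were above without overlap, against 2.72% of all genes, and 1 was below, against 9.45%. This was Tlr3, at −0.49 between the times in sham and 0.26, with overlap, in UNx animals of CCD. Without the low-correlation library of sham 1 at 72 h, that animal was at 27.6 TPM for Tlr3, above the highest 24 h sham animal (25.5 TPM). In UNx animals of CCD 37 of 38 were higher at 72 h, where 43.9% of all genes were, with a median of 0.80 against −0.04, and 6 were without overlap against 10.8% of all genes.

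The other genes of the pathway, 41 ligands, receptors, kinases, adaptors, factors, suppressors and further targets from general knowledge, were tested in the same fits. In PT-S1, 10 of those tested were higher and 15 lower after UNx at 24 h, and 1 and 24 at 72 h. Of all genes tested there, 29.1% and 17% were higher. Without the libraries of low correlation 46% of all genes were higher at 72 h, and the split of the pathway genes was not computed. In CCD the numbers were 9 and 19 at 24 h, then 19 and 11 at 72 h, so 25, 25, 28 and 30 were tested. In CCD 41.8% and 52.2% of all genes were higher. In limma 0 passed the adjusted threshold in any table. At an unadjusted p under 0.05 there were 4, 3, 3 and 0 in the same order, where 17.8%, 20.5%, 15.5% and 7.49% of all genes had such a p, so these counts were near or under the background. Among the ligands, Ifne, Ifnl2 and Ifna4 were listed at 0 in 69 of 69 libraries, Ifnb1 in 68 and Ifng in 63. All receptors were present: the group means were 16.3 to 64.6 TPM for Ifnar1, 39.0 to 68.5 TPM for Ifnar2, 22.6 to 84.4 TPM for Ifngr1 and 13.0 to 47.7 TPM for Ifngr2. Ifnlr1, the specific chain of the type III receptor, was lower, at 0.373 to 4.32 TPM.

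The smallest adjusted p of these genes was that of Eif2ak2 in CCD at 24 h. Eif2ak2, which encodes the RNA-activated kinase PKR, was at 12.4 ± 1.57 TPM in sham and 8.31 ± 0.956 TPM in UNx (SD, n = 4 and 3). The difference for Eif2ak2 was −0.52 (SE 0.136, limma adjusted p = 0.118). Ifngr2 in the same table was at 47.7 TPM in sham and 36.5 TPM in UNx, a difference of −0.36. In CCD at 72 h the smallest p belonged to Nlrc5, an activator of class I antigen presentation genes such as Tap1 and Psmb9. Its means were 0.607 TPM in sham and 2.27 TPM in UNx, a difference of 0.82 (limma adjusted p = 0.693). Nlrc5 thus reached the mean of 1 TPM needed for a test only through the UNx animals. Its direction was set by that filter and is no support for a change of its targets.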

How the data were processed

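RNA-seq was made from 69 libraries of microdissected tubules (Zymo RNA kit and SMART-Seq V4 cDNA, per the labels' protocols). TPM values per gene and library were deposited by the authors in 4 tables (segment by time), and the submitters' processing notes name STAR, RSEM 1.3.3 and GRCm39. The annotation release is not given in the sources used here. Of 69 columns, 47 matched a single sample, 22 matched a group and animal, and 0 were left unused. TPM keeps no depth, so no counting interval was computed, and p-values measure the spread between animals.

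Libraries were averaged per animal on log2(TPM + 1). Genes with a mean of at least 1 TPM were tested in R 4.3.3 with limma 3.58.1 (mean-variance trend, two-sided, Benjamini-Hochberg over all genes tested, threshold 0.05), within each table. The difference between effects came from a model of 4 groups. The scripts were tested on simulated data. Marker sums are plain TPM. Whether both segments came from the same animals is not stated.

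The members and lists were chosen with earlier results of these data known. Named members were those past the threshold (0 of them), the 4 of smallest p per table, the 5 of highest sham level per segment, the highest of each role, and Ifit3 and Ifit3b. Alternatives changed the pseudocount, the filter, the scaling, the averaging, the block and the samples included. Leaving out single libraries was added after seeing the data.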

Additional observations from a re-analysis of the deposited data

Results flagged for a closer look

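A test for an animal far from the others of its group was run 81 times in groups of 4 or more animals. It took the named members and the mean level of the 41 genes, and 4 stood out, where chance gives about 1 in 20. The tests reuse the same animals and are not independent. In PT-S1 at 24 h, Ifit3b was at 1.52 TPM in UNx 1, while the other UNx animals lay between 0.795 and 0.857 TPM. In the same table Ifitm3 was at 49.1 TPM in UNx 3, above the 20.8 to 27.2 TPM of the other UNx animals. In CCD at 24 h, Ifitm3 was at 140.6 TPM in sham 3, beside 107.6 to 112.6 TPM in the other sham animals. In CCD at 72 h the mean log2(TPM + 1) level of the 41 genes was 3.175 in UNx 3 and 4.275 to 4.391 in the other UNx animals.

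For Tlr3 in CCD, every UNx animal was below every sham animal at 24 h and above every one at 72 h. The effects differed by 0.741 on the log2 scale, with an adjusted p of 0.637 in limma for that difference. From 24 h to 72 h, across separately normalized tables, the Tlr3 level differed by −0.485 in sham and by 0.257 in UNx animals. The separation at 72 h rests on library 2 of sham 1, at 8.21 TPM, which correlated poorly with the rest of its table. Without it sham 1 was at 27.6 TPM, above every UNx animal (20.5 to 24.1 TPM), and the groups overlapped.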

How the results depend on the processing

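Of 50 changes of named members under all alternatives, 1619 values in all, 1577 kept their direction and side of the threshold, 3 newly passed it and 39 turned. In PT-S1 at 24 h the median member change was 0.0626 after quantile normalization, 0.065 after median-ratio scaling, and −0.261 without the libraries of low correlation, and −0.244 to −0.0498 without 1 animal or −0.229 to −0.00155 without 1 library. With the same scalings, Ifi35 was at 0.204 and 0.199, Irgm1 at 0.0217 and 0.148, and Ifi27, with median-ratio scaling, at 0.065. The number of members past the threshold there was 0 to 2, with Stat2 and Ddx58 past it without library 2 of sham 3 (adjusted p of 0.041 and 0.0441). Leave-out values ran from −0.295 to 0.0483 for Ifi27, −0.128 to 0.0453 for Ifi35, −0.345 to 0.086 for Irgm1 and −0.0048 to 0.362 for Psmb10. In PT-S1 at 72 h, Bst2 was at 0.0239 (quantile) and 0.115 (median-ratio), Irgm1 at 0.0226 and Psmb10 at 0.0515 (median-ratio). Without the libraries of low correlation, Ddx58 was at 0.0459, Irgm1 at 0.189 and Ifitm3 at −0.124. In CCD at 24 h, 1 member (Parp14) passed with every library as a replicate, Ifi35 was at 0.0262 (median-ratio) and 0.0263 (every library), and its leave-out range was −0.0997 to 0.0429. In CCD at 72 h the leave-out range was −0.00836 to 0.373 for Ddx58 and −0.0389 to 0.29 for Irf9. The number past the threshold was 0 in limma for all tables and differences under the other alternatives run. The cause of these shifts was not tested. Depth is unknown and sets no limit that can be given.

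Sham and UNx animals that share a number are different mice, and their deviations correlated at −0.0372 to 0.257, −0.366 to 0.328, −0.181 to 0.0461 and −0.00951 to 0.176 in PT-S1 at 24 h and 72 h and CCD at 24 h and 72 h, so the numbers were not taken as pairs. With the number as a replicate block, 0 members passed, the median changes were −0.0532, −0.372, −0.273 and 0.50, and 1, 9, 6 and 19 members had an unadjusted p under 0.05. In these fits 13.8%, 16.1%, 14% and 7.79% of all genes had such a p.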
